A study of Mus musculus with 14 samples.

Results

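The solute carriers are a large group of membrane proteins that move sugars, amino acids, metals, ions, vitamins and metabolites across the plasma membrane and the membranes of organelles. The set described here holds every gene of the deposited NK count table whose symbol has the form Slc, a number, the letter a and a number, apart from Slc25a23, which was left out. It came to 154 of the 10210 genes listed. Of these, 149 are transporters of 40 families, and 5 carry such a symbol without being transporters: the scaffold proteins Slc9a3r1 and Slc9a3r2, the adaptor Slc4a1ap, the pseudogene Slc2a4rg-ps, and Slc7a6os, a gene on the strand opposite Slc7a6. Members were put in substrate classes by family number, so single members can carry something else than their class says. By family, 24 members fell in the class of amino acids and peptides, 20 in that of glucose, other sugars and monocarboxylates, 21 in metals, 22 in other ions, 19 in lipids, vitamins and organic ions and 9 in nucleosides and nucleotide sugars. The mitochondrial family Slc25 gave 34, and the remaining 5 are those matched by name.

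The data were bulk 3' end RNA-seq counts from sorted natural killer (NK) cells of 8-week-old BALB/c female mice, in 3 groups. Healthy spleen NK cells came from mice without tumours (n = 3). Tumour-bearing spleen NK cells (n = 4) and tumour NK cells (n = 4) came from mice injected in the lower left mammary fat pad with 100000 4T1-GFP cells, a mouse mammary carcinoma line labelled with green fluorescent protein. In all 3 groups the cells were enriched magnetically and sorted for CD45 and NKp46, with GFP, CD14, CD31, CD3 and EPCAM negative cells kept. Tumours were digested with collagenase A and DNase for 20 min at 37 °C, and spleens were crushed and freed of red cells on ice, so the tissue and the way of freeing the cells cannot be told apart. The labels call the replicates independent and do not say whether each is 1 mouse, and the p-values therefore measure the spread between these libraries. A table of 3 libraries of sCAFs, a fibroblast subset sorted from 4T1-GFP tumours as EPCAM, GFP, CD45, CD31 and PDPN negative, served for levels in other cells of the tumour.

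NK cells kill tumour and infected cells and release cytokines, and both functions draw on glucose, amino acids and metals taken up through carriers. Activated lymphocytes typically raise the heterodimer of the heavy chain Slc3a2 and the light chain Slc7a5, which imports leucine and other large neutral amino acids, and the glucose carrier Slc2a1. Carriers of the Slc25 family link these nutrients to respiration by exchanging phosphate, nucleotides and metabolites across the inner mitochondrial membrane.

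The libraries held 559688 (healthy spleen replicate 1) to 1966963 counts (tumour-bearing spleen replicate 3), so that 3 counts, the limit that a count of 0 allows, stood for 1.525 to 5.36 CPM, counts divided by the library's total on a common scale. All 10 listed NK markers were detected in every group, at a summed 3.174 to 3.467% of counts in healthy spleen, 2.975 to 3.293% in tumour-bearing spleen and 2.066 to 2.528% in tumour. A macrophage list, with 10 of its 15 genes in the table, took 0.00340 to 0.00411%, 0.00311 to 0.00473% and 0.00497 to 0.0243%, with tumour replicate 3 at the top, and 3, 2 and 0 of its genes were at 0 in the 3 groups. A neutrophil list (4 of 7 genes in the table) took up to 0.000893% in healthy spleen, up to 0.00119% in tumour-bearing spleen and 0.00557 to 0.0153% in tumour. The part of other cells in the results below was not tested. Values without tumour replicate 3 or in sCAFs are given as description only. Leaving out that replicate does not remove the neutrophil transcripts, whose share was higher in every tumour library than in any spleen library. In bulk samples fewer cells of a type and less RNA per cell cannot be told apart.

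CPM below are scaled by the trimmed mean of M-values (TMM), and called means an adjusted p under 0.05 (edgeR quasi-likelihood test, Benjamini-Hochberg over all 8471 genes tested). The low-count filter passed 118 members. The other 36, which had at most 30 counts in any library and a group mean of at most 9.11 CPM, were not tested, among them the lysosomal arginine sensor Slc38a9 and the lysosomal peptide carrier Slc15a3. Of the 118, 29 rose and 14 fell in tumour NK cells against tumour-bearing spleen NK cells. That was 36.4% called, beside 29% of all genes tested, with 15.8% of all genes higher and 13.2% lower. The number that fell was 8 without tumour-bearing spleen replicate 3 and 9 without tumour-bearing spleen replicate 2, tumour replicate 2 or tumour replicate 3, while the number that rose stayed between 24 and 29 when any 1 library was left out. Against healthy spleen NK cells, 25 members rose and 15 fell (33.9% called, beside 30.5% of all genes, 16.5% higher and 14% lower). The groups did not overlap in CPM for 40 members (33.9%) in the first comparison, beside 29.7% of all genes, and for 47 (39.8%) in the other, beside 34.8%. The 2 comparisons share the tumour libraries. The median log2 fold change of the tested members was 0.02 against tumour-bearing spleen and 0.07 against healthy spleen, beside 0.0014 and 0.02 over all genes.

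The plot of shares by class gives the calls by substrate. Against tumour-bearing spleen, 9 of 19 tested amino acid and peptide carriers rose and 4 fell, with a median log2 fold change of 0.59. Of 13 sugar and monocarboxylate carriers 6 rose and 0 fell, with a median of 1.00. Among metal carriers 5 of 16 rose and 3 fell, among mitochondrial carriers 5 of 29 rose and 4 fell, and among ion carriers 3 of 17 rose and 1 fell. Of the 11 carriers of lipids, vitamins and organic ions 1 rose and 1 fell. None of the 8 carriers of nucleosides and nucleotide sugars passed the test in either comparison with tumour NK cells, with log2 fold changes of -0.76 to 0.30. Against healthy spleen the counts higher and lower were 8 and 2 for amino acids, 5 and 1 for sugars, 5 and 5 for metals, 5 and 3 for mitochondrial carriers, 0 and 1 for ions, and 1 and 2 for lipids and vitamins. No difference between classes was tested.

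**Figure D1:**
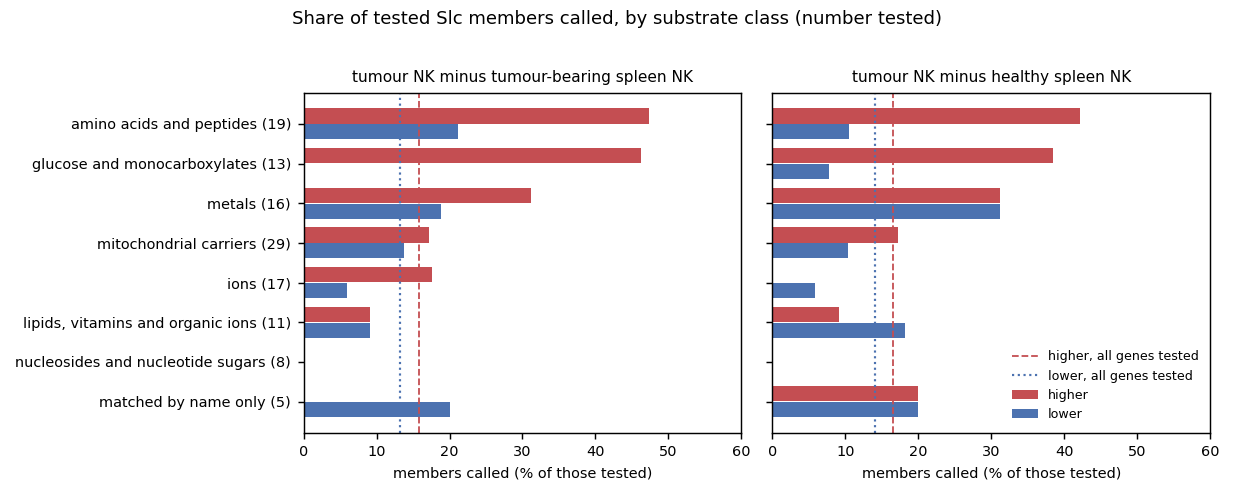
Share of tested Slc members called higher (red bars) or lower (blue bars) in tumour NK cells, in % of the number tested (in brackets), per substrate class, against tumour-bearing spleen (left) and healthy spleen (right). The dashed and dotted lines give the shares of all genes tested, 15.8% and 13.2% on the left and 16.5% and 14% on the right; amino acid and sugar carriers called higher reach farthest past the line in both panels.

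**Figure D2:**
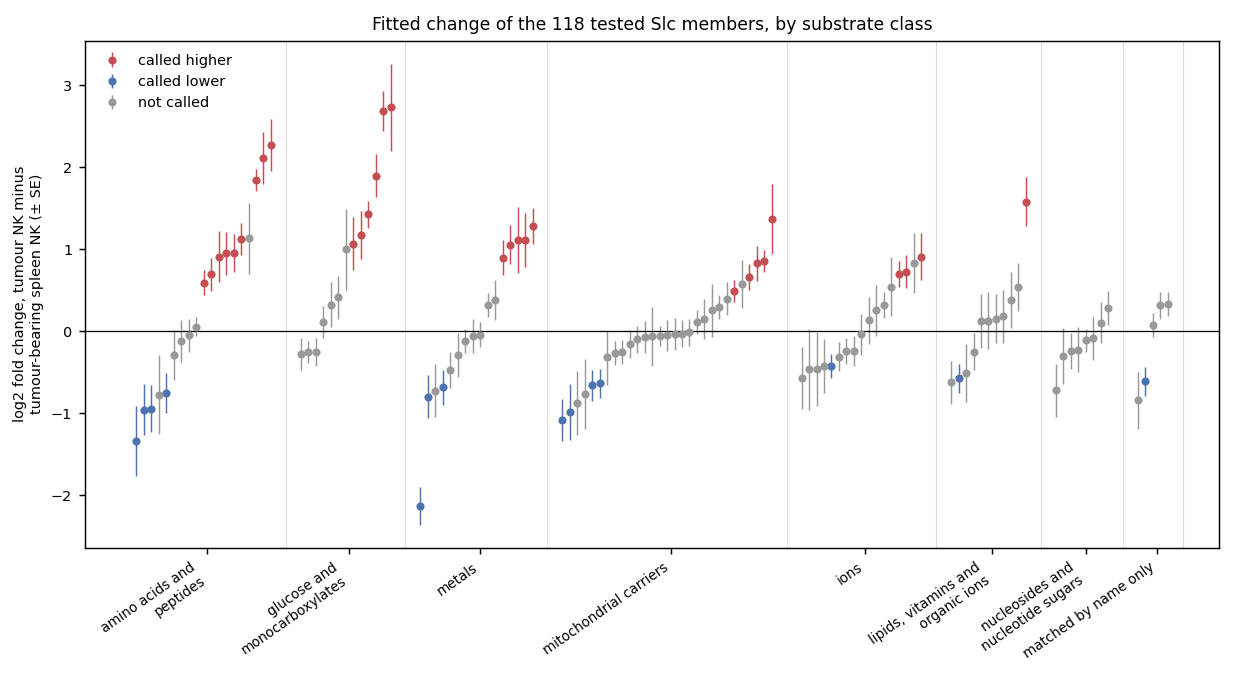
Fitted log2 fold change (points, with SE as lines) of each of the 118 tested members in tumour NK cells minus tumour-bearing spleen NK cells, ordered within substrate class. Red marks the 29 members called higher, blue the 14 called lower and grey the 75 not called; Slc16a10 lies highest at 2.73 and Slc30a1 lowest at -2.13.

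The amino acid carriers with the largest changes were Slc3a2, Slc7a5 and Slc38a2. Slc3a2, the heavy chain that takes several Slc7 light chains to the cell surface, stood at 94.0, 128.9 and 127.1 CPM in healthy spleen, at 151.7, 170.8, 149.8 and 147.5 CPM in tumour-bearing spleen and at 593.5, 514.4, 531.5 and 584.7 CPM in tumour. All 4 tumour libraries lay far above all 7 spleen libraries. The log2 fold change was 1.84 ± 0.13 (SE) against tumour-bearing spleen (adjusted p = 2.85e-09, edgeR) and 2.23 ± 0.15 against healthy spleen (adjusted p = 1.48e-09, edgeR), the smallest adjusted p of any member in either comparison. Slc7a5, its partner for leucine and other large neutral amino acids, was nearly silent in spleen, with counts of 0, 5 and 2 in the healthy libraries. Its CPM was 1.44 ± 1.35 (SD, n = 3) in healthy spleen, 4.62 ± 0.62 (n = 4) in tumour-bearing spleen and 22.8 ± 5.26 (n = 4) in tumour, where the lowest library had 18.8 CPM. It rose by 2.27 ± 0.32 log2 units against tumour-bearing spleen (adjusted p = 1.75e-05, edgeR). The groups did not overlap in any of the 3 comparisons, and the step between the 2 spleen groups did not pass the test (1.30 ± 0.53 log2 units, adjusted p = 0.317, edgeR).

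Slc38a2, a sodium-coupled importer of alanine, glutamine and other small neutral amino acids that rises when amino acids run short, had 668.1, 920.2, 712.5 and 749.2 CPM in tumour. Its spleen values spread widely, from 131.2 to 314.4 CPM in healthy spleen and from 112.1 to 240.0 CPM in tumour-bearing spleen. The high spleen libraries were tumour-bearing replicates 1 and 2 (232.5 and 240.0) and healthy replicate 1 (314.4), which stood apart from the other 4 spleen libraries across many genes in an earlier look at these data. No label names a batch for this split. The log2 fold change against tumour-bearing spleen was 2.12 ± 0.32 (adjusted p = 0.000498, edgeR), 1.68 against replicates 1 and 2 alone and 2.68 against replicates 3 and 4 alone.

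Other importers rose less. The cationic amino acid carrier Slc7a1, which takes up arginine and lysine, had 30.5 ± 9.16 CPM in tumour-bearing spleen and 66.4 ± 8.35 CPM in tumour (SD, n = 4 each), without overlap (log2 fold change 1.12 ± 0.20, adjusted p = 0.000254, edgeR). Against healthy spleen (20.5 ± 3.18 CPM, n = 3) it rose by 1.66 log2 units. The glutamine carrier Slc1a5 went from 69.5 to 88.2 CPM in tumour-bearing spleen to 104.6 to 142.6 CPM in tumour, a rise of 0.59 log2 units, and of 0.73 against healthy spleen. Slc7a6, a light chain that exchanges cationic for neutral amino acids, rose by 0.95 and 1.09 log2 units against the 2 spleens. In GENCODE M21 Slc7a6 ends at base 106198706 of chromosome 8, and the opposite-strand gene Slc7a6os begins at 106200717, so the 2 do not overlap. The annotation and strand setting of the counting are not given in the sources used. Whether reads beyond the annotated ends were shared was not tested. Slc7a6os itself was not called, at 0.31 against tumour-bearing spleen. Against tumour-bearing spleen replicates 1 and 2 alone Slc7a6 was not called (0.63, adjusted p = 0.0879, edgeR). The glutamine and alanine carrier Slc38a1 (0.69) and the taurine carrier Slc6a6 (0.95) rose against tumour-bearing spleen but were not called against healthy spleen, at 0.47 and 0.38. Slc66a2, of the PQ-loop family, rose from 5.88 to 11.3 mean CPM, and lost its call in 10 of 19 other settings. Without tumour replicate 1, Slc38a1 (0.59, adjusted p = 0.0579, edgeR) and Slc6a6 (0.69, adjusted p = 0.0662, edgeR) were not called, and leaving out any 1 of 6 libraries ended the call of Slc66a2.

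Of the class, 4 carriers fell. Slc7a7, a light chain for cationic amino acids, fell by 1.34 log2 units (10.7 ± 4.03 to 4.17 ± 0.59 CPM, SD, n = 4 each). The facilitative carrier of large neutral amino acids Slc43a2 fell by 0.96, the lysosomal proton-coupled Slc36a1 by 0.95 and the lysosomal glutamine exporter Slc38a7 by 0.76. Against healthy spleen only Slc36a1 (-1.08) and Slc38a7 (-1.17) of these 4 were called, while Slc7a7 (-0.89) and Slc43a2 (-0.63) were not. These calls lay near the threshold. Against tumour-bearing spleen, the call of Slc7a7 was lost without tumour-bearing spleen replicate 1 or 2 or tumour replicate 3 or 4 (-1.19 to -1.31, edgeR adjusted p up to 0.0673). That of Slc43a2 was lost without tumour-bearing spleen replicate 3 or tumour replicate 1, 2 or 4 (-0.80 to -0.95, edgeR adjusted p up to 0.0923). That of Slc38a7 was lost without tumour-bearing spleen replicate 2 or 3 or tumour replicate 1 or 2 (-0.60 to -0.74, edgeR adjusted p up to 0.101). Without tumour replicate 3, Slc36a1 was not called (-0.68, adjusted p = 0.0713, edgeR). Against healthy spleen, Slc36a1 was not called without healthy replicate 3 (-0.73). Slc43a3, placed in this class by family although it carries purine bases, was called against healthy spleen (4.80 to 13.6 mean CPM, log2 fold change 1.49) and not against tumour-bearing spleen (1.13, adjusted p = 0.0551, edgeR). The call was lost without healthy spleen replicate 2 or 3 or tumour replicate 1 or 3 (1.22 to 1.53, edgeR adjusted p up to 0.122).

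**Figure D3:**
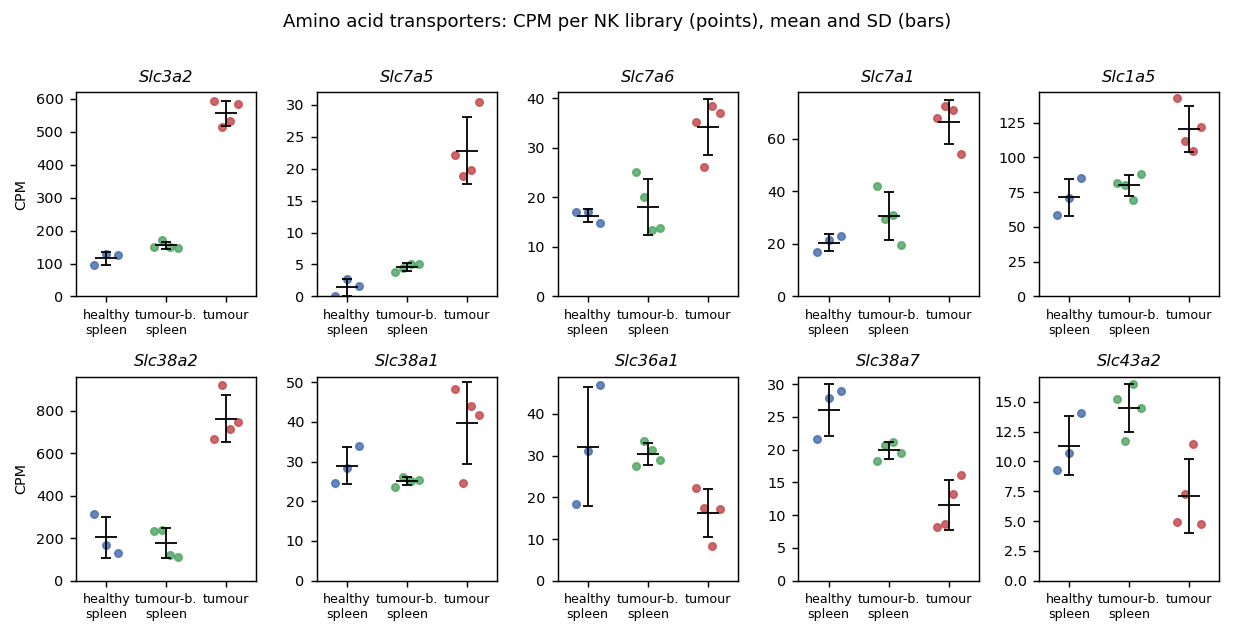
CPM per NK library (points) of amino acid carriers in healthy spleen (n = 3), tumour-bearing spleen (n = 4) and tumour (n = 4), with group mean and SD as bars. Slc3a2 lies between 514.4 and 593.5 CPM in tumour and at most at 170.8 CPM in any spleen library.

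Summed over the class, the 24 members of the amino acid families took 0.0763 to 0.0961% of counts in healthy spleen, 0.0708 to 0.0950% in tumour-bearing spleen and 0.165 to 0.192% in tumour. The tumour mean of 0.178% was 217% of that of tumour-bearing spleen, without overlap. Slc38a2 and Slc3a2, picked as the 2 largest differences of the class, made up 92.5% of this difference. The other 22 members together took 0.0556% in tumour and 0.0484% in tumour-bearing spleen. The exact two-sided permutation p was 0.0286, the smallest that 4 against 4 libraries can give, and 0.098 after Benjamini-Hochberg adjustment over 24 such tests. No adjusted p in this family could pass 0.05 against healthy spleen either, where the smallest raw p is 0.0571. All 154 members together took 0.595 ± 0.046% in tumour-bearing spleen and 0.742 ± 0.022% in tumour (SD, n = 4 each; p = 0.0286, exact permutation test, adjusted 0.098, which does not pass), beside 0.634 ± 0.052% in healthy spleen (n = 3). The 4 members with the largest differences were Slc38a2, Slc25a3, Slc3a2 and Slc25a5. The other 150 together took 0.444% of raw totals in tumour and 0.446% in tumour-bearing spleen. Since the 4 were picked by their difference, a smaller remainder was built in. With TMM-scaled library sizes the difference of all members was 0.208 percentage points in place of 0.147, and the remainder was not taken on that scale.

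Genes that sense or answer amino acid supply were read beside the carriers. Of 25 tested, 7 rose and 2 fell against tumour-bearing spleen (36% called, beside 29% of all genes). Against healthy spleen 9 rose and 2 fell (44% called, beside 30.5% of all genes). Atf4, the transcription factor of the amino acid and stress response that drives many carriers, rose from 359.0 ± 49.6 to 759 ± 65.5 CPM (SD, n = 4 each; log2 fold change 1.08). Cebpb, its partner factor, rose by 2.64, the phosphatase subunit Ppp1r15a by 2.24 and the mTORC1 inhibitor Ddit4 by 1.43. The 2 that fell, Lamtor5 (-0.77) and Lamtor4 (-0.56), are subunits of the complex that docks mTORC1 on lysosomes.

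The sugar carriers changed by member. Slc2a1, the widely expressed glucose carrier, had 78.6, 51.4 and 42.9 CPM in healthy spleen, 59.5, 56.4, 55.1 and 57.9 CPM in tumour-bearing spleen and 154.1, 189.8, 145.5 and 129.3 CPM in tumour. The lowest tumour library was well above the highest spleen library, and the rises were 1.43 ± 0.17 (adjusted p = 1.88e-06, edgeR) and 1.47 ± 0.19 log2 units (adjusted p = 7.07e-06, edgeR). Slc2a3, the high-affinity glucose carrier of lymphocytes and neurons, had 104 ± 14.3 CPM in tumour-bearing spleen and 87.9 ± 19.7 CPM in tumour (SD, n = 4 each). Its groups overlapped and its log2 fold change was -0.25 ± 0.17 (adjusted p = 0.275, edgeR), so no change was detectable for it. Slc2a6, a hexose carrier of intracellular membranes found in myeloid cells, rose most of the family, from 7.26 to 10.1 CPM in tumour-bearing spleen to 39.0 to 71.5 CPM in tumour. Its log2 fold change was 2.69 ± 0.24 against tumour-bearing spleen (adjusted p = 6.91e-08, edgeR) and 2.38 ± 0.28 against healthy spleen. Tumour replicate 3, which had the most macrophage transcripts, had the highest Slc2a6 value. Without it, the log2 fold change of Slc2a6 against tumour-bearing spleen was 2.49 (adjusted p = 1.28e-06, edgeR).

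The monocarboxylate carriers of family Slc16 that passed the filter all rose, 3 of 3 in both comparisons. Slc16a3, the lactate exporter of glycolytic cells, rose from 5.06 to 9.91 CPM in tumour-bearing spleen to 22.9 to 36.2 CPM in tumour (log2 fold change 1.90 ± 0.26, adjusted p = 1.53e-05, edgeR). Slc16a10, which carries aromatic amino acids despite its family, had 1 to 10 counts per spleen library and 8.42 to 24.6 CPM in tumour (log2 fold change 2.73 ± 0.53). Slc16a6, described as a carrier of ketone bodies and taurine, rose by 1.17 log2 units. Its groups overlapped, since tumour-bearing spleen replicate 1 (18.3 CPM) lay above tumour replicate 3 (18.04 CPM). Against tumour-bearing spleen replicates 1 and 2 alone it was not called (0.93, adjusted p = 0.0809, edgeR). Slc37a3, a carrier of the endoplasmic reticulum and lysosome, rose by 1.07 against tumour-bearing spleen and was not called against healthy spleen (0.56), nor against tumour-bearing spleen replicates 1 and 2 alone (0.77, adjusted p = 0.185, edgeR). Slc50a1, the sugar efflux carrier of the SWEET type, was the one sugar carrier that fell against healthy spleen (273 ± 52.6 to 195 ± 17.6 CPM, log2 fold change -0.49), and was not called against tumour-bearing spleen (-0.26). Without healthy replicate 2 or 3, its log2 fold change was -0.40 to -0.42 and it was not called, and against healthy spleen the call of Slc16a6 (0.96) was lost without any 1 of 4 libraries.

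Of 12 tested partners that traffic or accompany carriers, 3 rose and 1 fell against tumour-bearing spleen (33.3% called, near the 29% of all genes). Against healthy spleen 3 rose and 2 fell (41.7% called, beside 30.5% of all genes). Emb, the ancillary protein that takes monocarboxylate carriers to the membrane, had 36.5 to 86.1 CPM in tumour-bearing spleen and 271.3 to 366.6 CPM in tumour (log2 fold change 2.53), whereas the other such protein, Bsg, was not called (-0.10). Txnip, an arrestin that removes Slc2a1 from the surface, fell by 1.07 log2 units (482 ± 127 to 230.2 ± 50.9 CPM, SD, n = 4 each), and its relative Arrdc4 rose by 2.91. Of 11 tested genes of glycolysis and lactate, 4 rose (Aldoa, Gpi1, Ldha and Pkm, by 0.46 to 0.92) and 0 fell (36.4% called, beside 29% of all genes). The lowest fold of that list was Gapdh at -3.36, not called (adjusted p = 0.26, edgeR). Against healthy spleen 6 rose and 0 fell (54.5% called, beside 30.5% of all genes). Hif1a, the hypoxia-stabilised transcription factor, rose by 1.30.

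The start regions of Slc2a1 and Slc16a3 are shown because both genes are textbook targets of the hypoxia factor. Whether that factor has a part in their rise was not tested. They are the 250 bases before the RefSeq start of each gene in GRCm38.p6, chr4:119108495-119108744 on the plus strand for Slc2a1 and chr11:120948817-120949066 on the plus strand for Slc16a3, written 5′ to 3′, with matches to the hypoxia response core ACGTG (searched on both strands) in capitals.
Slc2a1: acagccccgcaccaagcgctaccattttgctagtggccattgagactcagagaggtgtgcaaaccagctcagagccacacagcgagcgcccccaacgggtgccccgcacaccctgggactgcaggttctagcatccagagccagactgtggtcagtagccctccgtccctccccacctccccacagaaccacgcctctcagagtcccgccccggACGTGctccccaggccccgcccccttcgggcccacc
Slc16a3: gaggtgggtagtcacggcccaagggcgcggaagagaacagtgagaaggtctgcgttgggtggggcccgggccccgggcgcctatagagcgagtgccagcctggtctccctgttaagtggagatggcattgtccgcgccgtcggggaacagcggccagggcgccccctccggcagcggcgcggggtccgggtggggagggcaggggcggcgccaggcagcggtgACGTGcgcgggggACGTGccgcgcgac
The match of Slc2a1 begins 36 bases before its start, and those of Slc16a3 begin 27 and 14 bases before. In the table's windows of 300 bases (250 before to 50 after the start), 19.6% of all 32851 hold ACGTG. Windows were given for 114 members, 87 of them tested. Against tumour-bearing spleen, at least 1 window held a match in 11 of the 19 genes that rose, 6 of the 12 that fell and 11 of the 56 not called. A gene can have several windows. Counted by window, as for the 19.6%, the shares were 52.2%, 40.9% and 17.8%. These are a description of letters and not of binding.

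Metal carriers held the largest fall among all tested members. Slc30a1, the exporter of zinc from the cytoplasm to the outside, had 32.4, 36.9 and 51.2 CPM in healthy spleen, 43.5, 39.1, 43.2 and 34.0 CPM in tumour-bearing spleen and 9.02, 7.25, 9.02 and 10.5 CPM in tumour. Every tumour library lay below every spleen library, with log2 fold changes of -2.13 ± 0.23 (adjusted p = 6.54e-07, edgeR) and -2.15 ± 0.25 (adjusted p = 1.61e-06, edgeR). The 2 spleen groups differed by -0.02 ± 0.20. Slc30a1 is a known target of the metal-sensing transcription factor Mtf1, which had 4.19 ± 3.12 CPM in tumour, 8.72 ± 3.09 CPM in tumour-bearing spleen and 12.7 ± 6.54 CPM in healthy spleen (SD). Mtf1 fell against healthy spleen (-1.69, adjusted p = 0.0171, edgeR) and was not called against tumour-bearing spleen (-1.27, adjusted p = 0.0561, edgeR). Its tumour level lay near the 1.632 to 4.211 CPM that 3 counts stood for in those libraries. Whether Mtf1 has a part in the fall of Slc30a1 was not tested.

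The start region of Slc30a1 is shown because the gene is a known target of Mtf1. It is given as the 250 bases before its RefSeq start (GRCm38.p6, chr1:191906531-191906780, plus strand, 5′ to 3′). A match to the core of the metal response element, TGCACNC or TGCGCNC on either strand, is in capitals.
Slc30a1: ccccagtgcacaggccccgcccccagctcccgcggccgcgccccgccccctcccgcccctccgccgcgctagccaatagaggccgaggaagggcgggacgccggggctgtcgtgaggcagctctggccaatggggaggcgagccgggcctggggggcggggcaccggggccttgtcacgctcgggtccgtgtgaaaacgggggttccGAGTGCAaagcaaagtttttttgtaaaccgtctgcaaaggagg
The match begins 43 bases before the start, and another match begins 30 bases after it, outside the bases shown. Of all windows of 300 bases, 25.7% hold such a match. Such matches were present in 7 of 19 members that rose, 4 of 12 that fell and 23 of 56 not called. Counted by window, the shares were 30.4%, 18.2% and 37.0%.

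The zinc importers of family Slc39 went both ways, with 3 of 8 tested members higher and 2 lower in both comparisons. Slc39a4, a plasma membrane importer, rose from 10.8 to 14.9 CPM in tumour-bearing spleen to 25.4 to 37.9 CPM in tumour (log2 fold change 1.28 ± 0.22, adjusted p = 0.000193, edgeR). Slc39a1, another surface importer, rose by 1.05 and Slc39a6 by 1.11. Slc39a6 overlapped, as tumour-bearing spleen replicate 1 (21.3 CPM) exceeded tumour replicate 4 (20.0 CPM). Slc39a3, a surface importer too, fell by 0.80 against tumour-bearing spleen and by 1.67 against healthy spleen. Its healthy libraries had 44.7, 28.4 and 26.4 CPM, the tumour-bearing spleen libraries 13.0 to 19.6 CPM and the tumour libraries 9.02 to 10.5 CPM, so that no pair of groups overlapped. The Golgi carrier Slc39a13 fell by 0.69 and 1.16. In the exporter family Slc30, 4 members were tested. Slc30a6, a carrier into the Golgi, fell (-0.69) and Slc30a9, a mitochondrial zinc carrier, rose (0.51) against healthy spleen, and neither was called against tumour-bearing spleen. Leaving out 1 library ended the calls against tumour-bearing spleen of Slc39a3 (any of 6 libraries), Slc39a13 (any of 4) and Slc39a6 (any of 3), with edgeR adjusted p of up to 0.0802, 0.0725 and 0.0659. Against healthy spleen it ended those of Slc39a6 (healthy replicate 2 or 3, adjusted p up to 0.107) and Slc30a9 (any of 5 libraries, up to 0.157).

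For iron and copper, Slc11a2, the importer of ferrous iron at the membrane and from endosomes, rose from 31.3 ± 10.2 CPM in tumour-bearing spleen to 57.0 ± 4.17 CPM in tumour (SD, n = 4 each), without overlap (log2 fold change 0.90 ± 0.22, adjusted p = 0.00413, edgeR). The transferrin receptor Tfrc, which brings iron into the endosomes that Slc11a2 drains, rose by 1.86, and the ferritin heavy chain Fth1 by 0.70. They belong to a list of metal handling genes, of which 4 of 11 tested rose and 1 fell (45.5% called, beside 29% of all genes). Only 4 of the 11 had a positive log2 fold change, with a median of -0.12 and a lowest value of -1.61. The copper importer Slc31a1 was called higher against tumour-bearing spleen (1.11, adjusted p = 0.0466, edgeR) and lost the call in 12 of 18 other settings. Its relative Slc31a2 fell against healthy spleen (-1.37) and was not called against tumour-bearing spleen (-0.73).

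**Figure D4:**
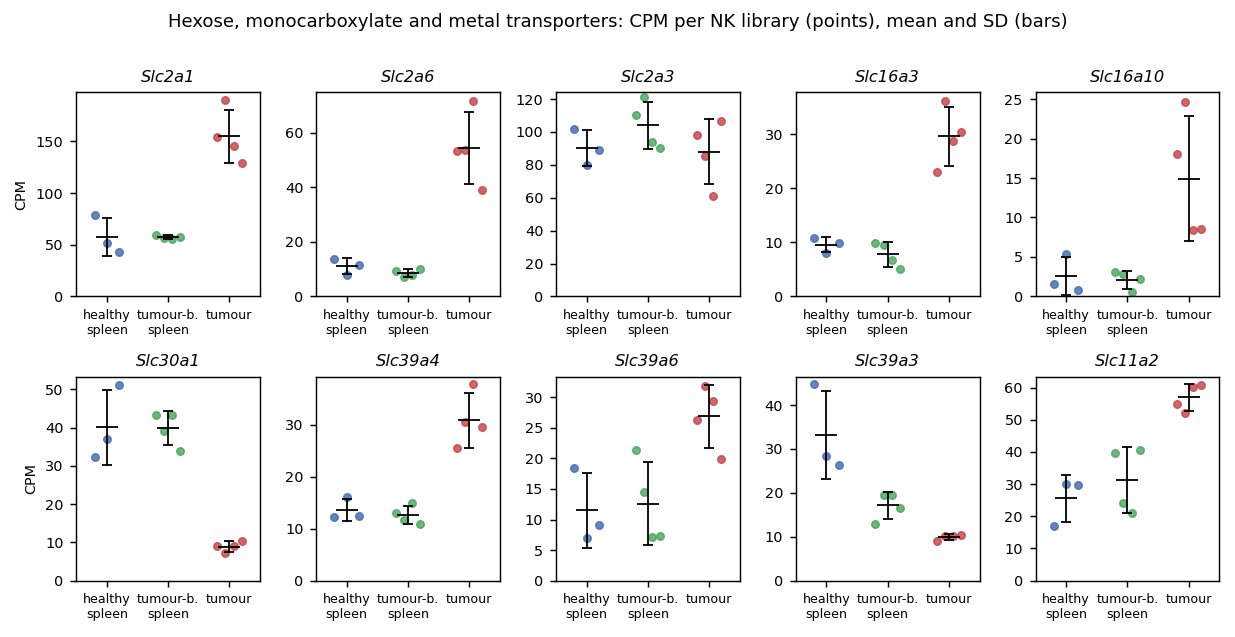
CPM per NK library (points) of hexose and monocarboxylate carriers (upper row) and metal carriers (lower row) in healthy spleen (n = 3), tumour-bearing spleen (n = 4) and tumour (n = 4), with group mean and SD as bars. Slc30a1 lies at 7.25 to 10.5 CPM in tumour and at 32.4 to 51.2 CPM in spleen, and Slc2a3 overlaps between all groups.

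Among mitochondrial carriers, Slc25a3, Slc25a4, Slc25a5, Slc25a20 and Slc25a36 rose and 4 others fell against tumour-bearing spleen. The carriers of ATP-Mg and phosphate Slc25a24 (-0.05) and Slc25a25 (0.39) were not called. Slc25a3, which imports the phosphate used to make ATP, had 684.2 to 810.5 CPM in healthy spleen, 649.5 to 798.8 CPM in tumour-bearing spleen and 1249 to 1410.0 CPM in tumour. The groups did not overlap, and the log2 fold changes were 0.85 ± 0.13 (adjusted p = 5.25e-05, edgeR) and 0.82 ± 0.14. Slc25a4 and Slc25a5 exchange ADP for ATP. Slc25a4 rose from 97.1 ± 19.6 CPM in tumour-bearing spleen to 152 ± 15.2 CPM in tumour (0.66 log2 units). Slc25a5 stood at 284.7 ± 39.4 CPM in healthy spleen, 417.5 ± 53.5 CPM in tumour-bearing spleen and 583.8 ± 48.6 CPM in tumour, with no overlap between any 2 groups. It rose in tumour by 0.49 log2 units against tumour-bearing spleen and by 1.03 against healthy spleen. Against tumour-bearing spleen replicates 1 and 2 alone neither was called (Slc25a4 0.47, adjusted p = 0.079, and Slc25a5 0.38, adjusted p = 0.137, edgeR). Reads shared with pseudogene copies of such carriers may have been split or lost in the counting, so the levels of Slc25a4 and Slc25a5 are uncertain.

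The carnitine and acylcarnitine exchanger Slc25a20, which brings fatty acids to oxidation, rose by 0.83 and 0.88 log2 units, and the pyrimidine nucleotide carrier Slc25a36 by 1.37 and 1.43. Slc25a36 had only 1.54 to 6.10 CPM in tumour-bearing spleen and kept its call in 12 of 18 other settings there. Lower in both comparisons were Slc25a53, of unknown substrate (27.3 ± 2.72 to 13.5 ± 5.72 CPM, -1.09), and the NAD carrier Slc25a51 (35.2 ± 1.97 to 22.0 ± 3.53 CPM, -0.66; SD, n = 4 each). Slc25a51 was not called against tumour-bearing spleen replicates 1 and 2 alone (-0.61, adjusted p = 0.0868, edgeR). Slc25a14, an uncoupling protein relative, was called lower against tumour-bearing spleen (-0.99) and not against healthy spleen (-0.69), and Slc25a45 likewise (-0.64 and -0.32). Against tumour-bearing spleen replicates 1 and 2 alone Slc25a45 was not called (-0.62, adjusted p = 0.0593, edgeR). Slc25a29, a carrier of basic amino acids, was called lower against healthy spleen (-1.35) and not against tumour-bearing spleen (-0.76). Whether these folds differ between the comparisons was not tested. The uncoupling protein Ucp2, a carrier of the same family under another symbol, had 748 ± 89.9 CPM in tumour and 1135 ± 337 CPM in healthy spleen (-0.60, called) but was not called against tumour-bearing spleen (-0.44). The mitochondrial pyruvate carrier subunit Mpc1 rose against healthy spleen (0.91) and was not called against tumour-bearing spleen (0.40). Leaving out 1 library ended the calls of Slc25a14 (any of 6), Slc25a36 (any of 5 in each comparison), Slc25a29 (any of 4) and, against healthy spleen, Slc25a20 (healthy replicate 3, 0.74, adjusted p = 0.0628, edgeR). Channels and import proteins of mitochondria gave 1 higher (Vdac2, 0.37) and 1 lower (Timm10, -1.13) of 12 (16.7% called, beside 29% of all genes).

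**Figure D5:**
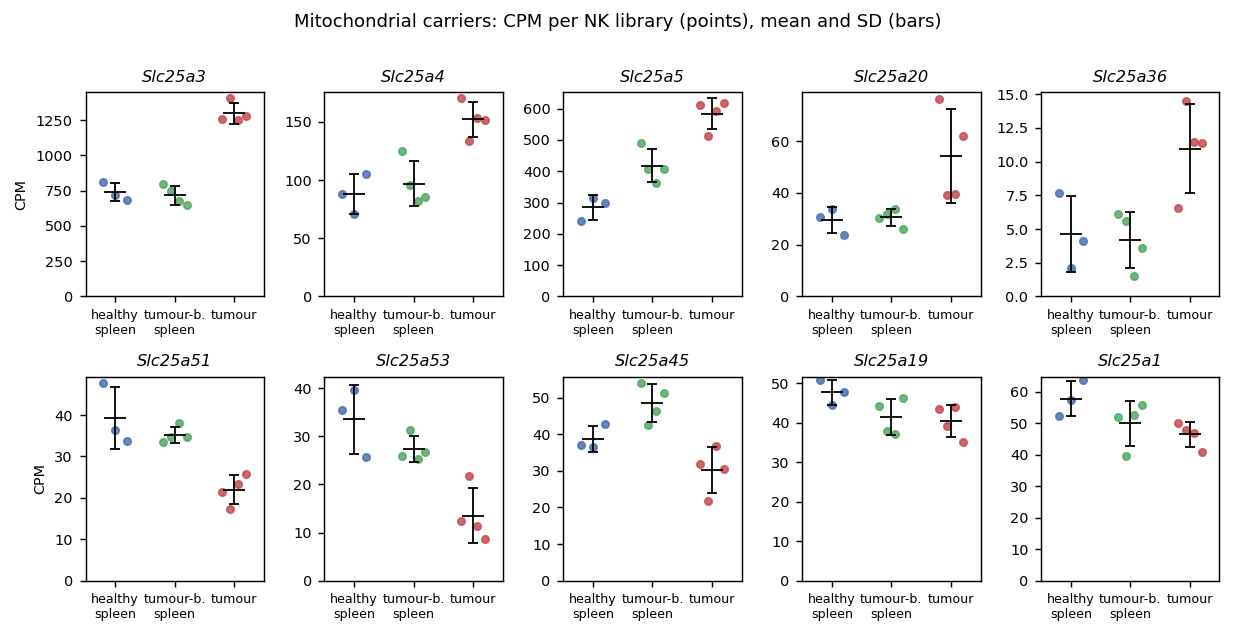
CPM per NK library (points) of mitochondrial carriers in healthy spleen (n = 3), tumour-bearing spleen (n = 4) and tumour (n = 4), with group mean and SD as bars. Slc25a3 reaches 1249 CPM or more in each tumour library and at most 810.5 CPM in spleen.

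Of the ion carriers, the phosphate importer Slc20a1 rose from 102.0 to 187.0 CPM in tumour-bearing spleen to 221.3 to 250.7 CPM in tumour (log2 fold change 0.70 ± 0.16, adjusted p = 0.00322, edgeR). Healthy spleen (171.2 to 234.2 CPM) overlapped with tumour, and that comparison was not called (0.30). Nor was it called against tumour-bearing spleen replicates 1 and 2 alone (0.43, adjusted p = 0.0864, edgeR). The magnesium carrier Slc41a1 rose by 0.73 and the chloride and sulfate carrier Slc26a11 by 0.91 against tumour-bearing spleen, and neither was called against healthy spleen (0.43 and 0.14). The potassium and chloride cotransporter Slc12a7 fell against tumour-bearing spleen (-0.43). The call of Slc12a7 was lost without any 1 of 5 libraries and that of Slc26a11 without any 1 of 4 (edgeR adjusted p up to 0.103 and 0.0893). Carbonic anhydrase Car2, which supplies protons and bicarbonate to ion exchangers, rose from 266.5 ± 62.0 to 1072 ± 106 CPM (SD, n = 4 each, log2 fold change 2.01). Of 16 tested ion pumps and their regulators 5 rose and 1 fell (37.5% called, beside 29% of all genes), the last being the calcium pump Atp2a3 (-0.80).

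Among vitamin and lipid carriers, the thiamine importer Slc19a2 rose from 4.12 to 6.70 CPM in tumour-bearing spleen to 13.9 to 18.8 CPM in tumour, without overlap (log2 fold change 1.58 ± 0.30, adjusted p = 0.000489, edgeR). The choline carrier Slc44a2 fell by 0.57 and 0.55, with overlapping groups, and Slc10a3, of the bile acid carrier family, fell against healthy spleen (-1.12). Without 1 library the call of Slc44a2 was lost (any of 3 against tumour-bearing spleen and any of 5 against healthy spleen). So was that of Slc19a2 against healthy spleen without healthy replicate 2 (1.16, adjusted p = 0.0514, edgeR). Of the 5 members matched by name, the pseudogene Slc2a4rg-ps fell in both comparisons (-0.61, or -0.46 and not called without tumour replicate 3, and -0.70) and the scaffold Slc9a3r1 rose against healthy spleen (0.74).

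Transport proteins listed under other symbols were read as well, and 5 of 37 tested rose and 6 fell against tumour-bearing spleen (29.7% called, near the 29% of all genes). Slco3a1, an organic anion carrier, had 5.79 to 7.81 CPM in tumour-bearing spleen and 37.3 to 47.8 CPM in tumour (log2 fold change 2.59). In the same direction, Slc35b2, which brings the sulfate donor into the Golgi, rose by 0.84. The Golgi GDP-fucose carrier Slc35c1 fell from 71.6 ± 3.47 to 28.5 ± 4.92 CPM (SD, n = 4 each, -1.33) and the lysosomal protein Cln3 by 1.06.

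Between the spleens of tumour-bearing and healthy mice, 0 of the 118 tested members were called with edgeR, beside 1.58% of all genes (1.23% higher and 0.354% lower). At an unadjusted p under 0.05 (edgeR) there were 13, where 5.9 would be expected if no member differed. The share of all genes at that threshold was not taken, so the 13 are not read as an excess among the carriers. DESeq2 called 1, Slc25a5. The lowest adjusted p with edgeR were those of Slc25a5 (log2 fold change 0.54 ± 0.15, adjusted p = 0.0812) and Slc39a3 (-0.88 ± 0.24, adjusted p = 0.0841). Groups did not overlap for 13 members (11%), beside 12.2% of all genes. With the split of the spleen libraries as a block, and spleen libraries only, edgeR called 7 of 112 members, beside 8.34% of all genes. The split was itself read from the expression values of these libraries. The p-values of this fit can therefore be too small, and the 7 are listed without being taken as differences. They were Slc25a5 (0.53), Slc9a3r1 (0.46) and Slc3a2 (0.39) higher, and Slc39a3 (-0.88), Slc20a1 (-0.51), Slc38a2 (-0.40) and the magnesium carrier Slc41a2 (-1.34) lower in tumour-bearing mice. Slc41a2 is named here because it completes this count, chosen after its values were seen.

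Of the 154 members, 142 were also listed in the sCAF table, which was made separately, so the levels are set side by side without a test (CPM of library totals in both). Slc2a1 had 414 ± 113 CPM in sCAFs (SD, n = 3) beside a mean of 144.2 CPM in tumour NK cells, and Slc7a5 70.8 ± 49.6 beside 21.2 CPM. Slc3a2 had 413 ± 155 beside 516 CPM and Slc38a2 277 ± 10.3 beside 710.5 CPM. Slc2a6, Slc16a3 and Slc16a10 were lower in sCAFs than in tumour NK cells, at 4.50, 11.4 and 5.06 CPM beside 50.5, 27.6 and 14.0 CPM. Slc30a1 was low in both, at 2.66 ± 0.36 and 8.28 CPM. The fibroblast list, with 3 of its 10 genes in the NK table, took 0.000561 to 0.00281% of counts in tumour NK libraries (median 0.00154%), 0.000311 to 0.00154% in tumour-bearing spleen (median 0.000781%) and 0.000661 to 0.00214% in healthy spleen (median 0.00197%).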

How the data were processed

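Raw counts, 1 row per gene symbol, were deposited by the authors, who made them with bcl2fastq, STAR 2.4.2a, HTSeq and the mm10 build, per the submitters' processing notes. Libraries were 3' end libraries from polyA RNA, per the labels' protocols. The annotation, the strand setting and any use of molecular identifiers are not given in the sources used here, so counts are not read as molecules, and limits from 3 counts cover counting error only. The NK table listed 10210 genes and that of the sCAFs listed 12235, in whole numbers, and 152 members had a symbol in GENCODE M21 (GRCm38).

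All 11 NK libraries (559688 to 1966963 counts) were fitted together with edgeR 4.0.16 in R 4.3.3: TMM scaling, filterByExpr on the groups, a quasi-likelihood fit with robust estimation, and Benjamini-Hochberg adjustment over 8471 genes. The code was tested on simulated data. CPM use TMM-scaled library sizes. Summed shares of raw counts were compared by exact two-sided permutation tests (scipy 1.17.1). Alternatives were upper-quartile scaling, DESeq2 1.42.0, no filter, only the 2 groups compared, no robust estimation, the replicate number as a block, each replicate left out, and fits that use the split of the spleen libraries. Promoter windows were those of RefSeq, GRCm38.p6. Protein sequences were not used here.

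Members, gene lists, substrate classes and tests were chosen with earlier results of these data known. Members named were, per comparison and class, up to 4 called members with the largest rise and 4 with the largest fall and a mean of at least 10 counts in the higher group, a core list of carriers, the 2 members on either side of the threshold, and up to 4 called partner genes per list. Some members are not reported here by name.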

Additional observations from a re-analysis of the deposited data

Results flagged for a closer look

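Of 182 groups of 4 libraries examined (91 named members in tumour and tumour-bearing spleen), 6 held a library whose gap to the others exceeded the critical value of Dixon's test; chance flags about 5% of groups. In tumour-bearing spleen, replicate 1 had 18.29 CPM of Slc16a6 beside 8.93 to 9.40 CPM in the other 3, and replicate 2 had 8.931 CPM of the inositol carrier Slc5a3 beside 2.06 to 2.29 CPM. In tumour, replicate 1 had 62.3 CPM of Slc30a9 beside 77.0 to 79.97 CPM and 43.45 CPM of the UDP-galactose carrier Slc35a2 beside 33.1 to 34.8 CPM. Tumour replicate 2 had 53.62 CPM of the pyrimidine nucleotide carrier Slc25a33 beside 62.7 to 64.3 CPM and 59.41 CPM of Slc41a1 beside 53.2 to 53.5 CPM.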

How the results depend on the processing

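Of 42 named members called against tumour-bearing spleen, 18 kept direction and call in every alternative that could be fitted, and 24 lost the call in at least 1; against healthy spleen these were 26 and 13 of 39. None changed sign. The largest move was against tumour-bearing spleen replicates 1 and 2 alone, with 20 members called (16 higher, 4 lower, beside 17.4% of all genes) in place of 43; that fit has fewer samples, and against replicates 3 and 4 alone 43 were called. Among the calls lost there were Slc7a6, Slc20a1, Slc25a4, Slc25a5, Slc25a51 and Slc16a6. Leaving out each replicate in turn gave 32 to 45 called members against tumour-bearing spleen, 30 to 42 against healthy spleen and 0 between the spleens. Between the spleens, DESeq2 called 1 member. The fit of spleen libraries only, with the split as a block, called 7, but that split was read from the same expression values.

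Same-numbered libraries deviated together in some pairs and not in others (r of -0.0471, 0.288, 0.00249 and 0.211 for tumour and tumour-bearing spleen, -0.186, -0.195 and 0.0445 for tumour and healthy spleen, and 0.501, -0.353 and 0.348 for the 2 spleens), so, with not every pair above 0.1, the numbers were not taken as pairs. With the replicate number as a block, 44, 38 and 0 members were called. The comparison against healthy spleen replicates 2 and 3 alone is the same fit as leaving out healthy replicate 1. The smallest p of the permutation tests, 0.0571 with 3 against 4 libraries, limits the summed shares, and the 36 members not tested are limited by depth.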

Other observations

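Genes of glutathione and the oxidative response, which rely on cystine and metals brought in by carriers, were listed as partners too. Of 13 tested, 6 rose and 0 fell in tumour NK cells against tumour-bearing spleen (46.2% called, beside 29% of all genes), and 4 rose and 1 fell against healthy spleen (38.5%, beside 30.5%). Osgin1, an oxidative stress-induced growth inhibitor, had a mean of 2.65 CPM in tumour-bearing spleen and 248 CPM in tumour, and the small Maf factors Maff and Mafg rose by 6.01 and 2.21. Txnrd1, a thioredoxin reductase, rose by 1.12, the glutathione synthesis enzyme Gclc by 0.63 and the factor Nfe2l2 by 0.61. Gclm (-0.19), Gsr (-0.28) and Prdx1 (0.03) were not called.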
